A study of Mus musculus with 6 samples.

Results

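The alpha-arrestin genes Arrdc1, Arrdc2, Arrdc3, Arrdc4 and Txnip were followed in RNA from mouse muscle, as 5 rows of a deposited table of 54532 genes that were chosen by gene name. The family was picked because Arrdc2 and Arrdc3 were already known to be higher in the mutant muscle of these same libraries, so the values of those 2 genes between genotypes are a description and carry no test. Arrdc1, Arrdc4 and Txnip came along as relatives and not for their values. All animals were on a C57BL/6 background and carried Igf2 alleles with loxP sites around exon 2 (Igf2f/f). The mutants (Igf2 cKO, 3 libraries) also carried Mck-Cre, a Cre recombinase driven by the muscle creatine kinase promoter. That promoter works in striated muscle fibres, so the deletion is directed at fibres and not at other cells of the tissue. Igf2 by cell type was not measured here. The controls (3 libraries) were littermates without Cre. The muscle sampled, the age and the sex are not stated in the labels, and nothing there says how many animals went into a library.

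Alpha-arrestins are adaptor proteins with the arrestin fold. Their tails carry PPxY sequences (proline, proline, any residue, tyrosine) that recruit ubiquitin ligases of the NEDD4 family to receptors and transporters in the membrane, which are then ubiquitinated and internalised. Txnip, the thioredoxin-interacting protein, also binds and inhibits thioredoxin and promotes uptake of the glucose transporters GLUT1 and GLUT4 from the cell surface. Txnip and Arrdc4 are classical targets of the glucose-sensing transcription factors MondoA (Mlxip) and ChREBP (Mlxipl), which act with their partner Mlx on paired E-box-like sequences. Arrdc3 is known for its part in membrane receptor and integrin traffic and in energy balance in mice, and Arrdc1 for driving the budding of small vesicles from the plasma membrane through the ESCRT protein Tsg101. Arrdc2 is less studied.

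The start regions of 4 members are shown. Txnip and Arrdc4 tracked each other from library to library. Arrdc2 and Arrdc3 are set side by side only because both were picked as higher in Igf2 cKO muscle, so their pairing is no result. Any link between the letters below and the RNA levels was not tested. Each line holds the 250 bases before the transcription start in RefSeq (build GRCm38.p6), in the direction of the gene. The windows are chr3:96557707-96557956 on the plus strand for Txnip, chr7:68749239-68749488 on the minus strand for Arrdc4, chr8:70839721-70839970 on the minus strand for Arrdc2 and chr13:80883134-80883383 on the plus strand for Arrdc3, the first of 3 windows that RefSeq gives for that gene. Capitals mark matches, on either strand, to the letters searched.
Txnip: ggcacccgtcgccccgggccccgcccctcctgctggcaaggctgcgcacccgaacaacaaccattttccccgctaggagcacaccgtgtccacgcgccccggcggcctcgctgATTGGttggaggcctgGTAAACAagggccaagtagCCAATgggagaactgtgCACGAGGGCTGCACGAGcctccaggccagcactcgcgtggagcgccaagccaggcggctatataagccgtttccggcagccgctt
Arrdc4: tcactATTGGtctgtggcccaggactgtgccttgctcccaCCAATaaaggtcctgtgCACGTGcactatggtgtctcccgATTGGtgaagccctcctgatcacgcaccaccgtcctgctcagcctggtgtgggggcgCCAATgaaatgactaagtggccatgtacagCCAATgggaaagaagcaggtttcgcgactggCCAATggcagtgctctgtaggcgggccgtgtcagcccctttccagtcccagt
Arrdc2: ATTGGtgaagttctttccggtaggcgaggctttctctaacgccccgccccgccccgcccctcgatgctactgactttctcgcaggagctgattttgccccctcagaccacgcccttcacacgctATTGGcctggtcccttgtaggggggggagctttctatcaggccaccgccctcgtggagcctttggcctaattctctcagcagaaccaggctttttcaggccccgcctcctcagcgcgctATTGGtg
Arrdc3: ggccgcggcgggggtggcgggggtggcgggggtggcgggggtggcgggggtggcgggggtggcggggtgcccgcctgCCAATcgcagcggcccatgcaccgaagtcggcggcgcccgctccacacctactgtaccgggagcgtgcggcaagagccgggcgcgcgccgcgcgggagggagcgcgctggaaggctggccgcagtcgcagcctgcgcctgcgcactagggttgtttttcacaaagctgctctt

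Both strands were searched for the E-box letters CACGTG, for AGAACA as found within glucocorticoid receptor sites, for the forkhead letters TGTTTAC and for TGACG as found within cyclic AMP response elements. The box CCAAT and the spaced E-box-like pair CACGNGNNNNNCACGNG were added after the windows had been read. The shares of windows given for these 2 are therefore a description, and nothing is read from them. No matches overlap one another. The Txnip window holds the spaced pair at positions -85 to -69 from the start, with the letters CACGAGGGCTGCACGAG, and 0.0457% of the 32851 mouse windows of this length hold such a pair. It also holds the forkhead letters, which 3.17% of windows have. The Arrdc4 window holds the palindrome CACGTG at positions -193 to -188, which 6.02% of windows have, and 6 CCAAT matches, a number that 0.0578% of windows reach. The Arrdc2 window has 3 CCAAT matches (reached by 2.79% of windows) and the Arrdc3 window 1 (33.8%). The second Arrdc3 window, not printed, holds the cyclic AMP letters at positions -248 to -244. Neither of the windows printed for Arrdc2 and Arrdc3 holds the E-box, forkhead, glucocorticoid receptor or cyclic AMP letters, the last 2 of which 16.1% and 17.8% of all windows have. The Arrdc1 window has no match to any of the letters.

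Library totals ran from 16184371 to 17905203 counts, with 20791 to 21401 genes detected by 1 count or more. Mitochondrial DNA genes took 4.88% to 10.6% of the counts, with overlapping groups. Igf2 itself had 39 to 60 counts in control and 33 to 42 in Igf2 cKO libraries, or -0.31 ± 0.25 as a log2 fold change of the mutants over the controls (SE, n = 3 per group, adjusted p = 0.751 by edgeR). This gene-level count does not separate the floxed exon. The tissue label was borne out by Acta1 and Ckm, at 37666 and 12775 CPM (counts scaled to a common library size) in controls. The summed level of 10 muscle fibre markers ran from 113198 to 137721 CPM in the control group and from 92813 to 109146 CPM in the mutants, with no overlap, although 4 of the 10 were above 0 on the log2 scale and 0 were called by edgeR (0 also had an unadjusted p under 0.05). Erythroid markers were lower without overlap too, at 449 to 617 CPM against 312 to 358 CPM, with all 5 tested markers below 0 on the log2 scale and 0 called by edgeR (5 at an unadjusted p under 0.05). Summed markers of endothelial cells, fibroblasts, macrophages, adipocytes, Schwann cells, smooth muscle and lymphocytes overlapped between the groups. Single markers among them did not, and are named after their values were seen. Of smooth muscle Acta2 (0.80 on the log2 scale), Myh11 (0.34) and Cnn1 (1.09) were higher in every mutant library, and of the endothelium Kdr (-0.60) and Cldn5 (-0.61) were lower, with adjusted p between 0.0956 and 0.493 by edgeR. Tagln (-0.09), Rgs5 (-0.03) and Des (0.10) of smooth muscle overlapped between the groups. So did the other endothelial markers, and 3 of the 8 endothelial markers were above 0. Of all tested genes 15.5% differed without overlap in either direction. The part of these differences in the results below was not tested, and in bulk tissue fewer cells of a type and less RNA per cell cannot be told apart.

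Arrdc2 stood at 21.2, 23.2 and 21.9 CPM in control replicates 1, 2 and 3, and at 195, 124 and 155 CPM in Igf2 cKO replicates 1, 2 and 3. CPM are scaled by TMM, a correction for library composition. Every Igf2 cKO library lay far above every control library. The means were 22.1 ± 1.04 and 158 ± 35.4 CPM (SD, n = 3 each). On the log2 scale the difference was 2.84 ± 0.17 (SE), or 7.15-fold with a 95% interval of 5.49 to 9.31. Of the 14867 genes tested, 7 had a higher log2 fold change. The control libraries were close together, with a coefficient of variation of 4.71%, and the Igf2 cKO libraries were not, at 22.4%. The medians over 13775 genes with a mean of at least 1 CPM were 11.1% and 11.8%. Arrdc2 (ENSMUSG00000002910) lies on chromosome 8, 70835129 to 70839720, minus strand, in the coordinates of the deposited table, and no other annotated gene overlaps it.

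Arrdc3 stood at 34.8, 31.7 and 26.4 CPM in control replicates 1, 2 and 3, and at 84.5, 71.8 and 86.2 CPM in Igf2 cKO replicates 1, 2 and 3. The groups did not overlap here either, and Igf2 cKO replicate 2 was the lowest mutant library for both Arrdc2 and Arrdc3. The means were 31.0 ± 4.26 and 80.8 ± 7.84 CPM (SD, n = 3 each). On the log2 scale the difference was 1.38 ± 0.13 (SE), or 2.61-fold with a 95% interval of 2.13 to 3.19. Of all tested genes, 56 had a higher log2 fold change. Arrdc3 (ENSMUSG00000074794) lies on chromosome 13, 80883384 to 80896042, plus strand. The noncoding gene 1700023H06Rik on the opposite strand overlaps it and had at most 2 counts in a library, against at least 404 for Arrdc3.

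Txnip, the most abundant member per gene length, did not pass the test. It stood at 687, 647 and 730 CPM in control replicates 1, 2 and 3, and at 570, 811 and 677 CPM in Igf2 cKO replicates 1, 2 and 3. The lowest and the highest of the 6 values were both mutant libraries, so the groups overlapped. Its log2 fold change came to -0.0045 ± 0.15 (SE, adjusted p = 0.995 by edgeR), and the 95% interval on the linear scale ran from 0.783 to 1.27-fold. Txnip (ENSMUSG00000038393) lies on chromosome 3, 96557957 to 96561883, plus strand. The antisense gene Gm15441 overlaps it with 3 to 25 counts, and without a stated strand setting these reads cannot be told apart from Txnip, which had at least 10234 counts.

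Arrdc4 showed the same order of libraries as Txnip within the Igf2 cKO group. Its levels were 24.5, 21.8 and 24.8 CPM in control replicates 1, 2 and 3, and 19.5, 26.7 and 22.6 CPM in Igf2 cKO replicates 1, 2 and 3. Again the mutant libraries took both ends of the range, with replicate 1 lowest and replicate 2 highest. In the Igf2 cKO libraries the mitochondrial share of the counts and the myosin genes Myh2 and Myh7 had the same order. This was seen after the fact. In Igf2 cKO replicates 1, 2 and 3 the mitochondrial share was 4.88%, 10.6% and 7.58%, the fast oxidative myosin gene Myh2 stood at 920.5, 2917 and 1201 CPM, and the slow myosin gene Myh7 at 43.7, 409.7 and 52.9 CPM. Myh4, the most abundant of the listed myosin genes, had the reverse order there, at 32951, 17291 and 28640 CPM. The control libraries did not share these relations. In control replicates 1, 2 and 3 the mitochondrial share was 6.30%, 7.32% and 8.43%, Myh2 stood at 1116, 1624 and 1454 CPM and Myh7 at 310.6, 209.3 and 219.6 CPM. Myh4 stood at 35433, 33116 and 46270 CPM there, which is the same order as Txnip and Arrdc4 and not the reverse. The part of these markers and of the mitochondrial share in the values of Txnip and Arrdc4 was not tested. The log2 fold change was -0.05 ± 0.13 (SE, adjusted p = 0.942 by edgeR), with a 95% interval of 0.788 to 1.19-fold. Arrdc4 (ENSMUSG00000042659) lies on chromosome 7, 68736995 to 68749241, minus strand.

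Arrdc1, the vesicle-budding member, was the lowest in level per gene length. It stood at 8.05, 7.71 and 5.75 CPM in control replicates 1, 2 and 3, and at 7.47, 6.49 and 5.96 CPM in Igf2 cKO replicates 1, 2 and 3. Replicate 3 was the lowest library in each group, and the groups overlapped. The log2 fold change was -0.11 ± 0.19 (SE, adjusted p = 0.898 by edgeR), with a 95% interval of 0.69 to 1.24-fold on 88 to 149 counts a library. Arrdc1 (ENSMUSG00000026972) lies on chromosome 2, 24925352 to 24935252, minus strand.

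**Figure D1:**
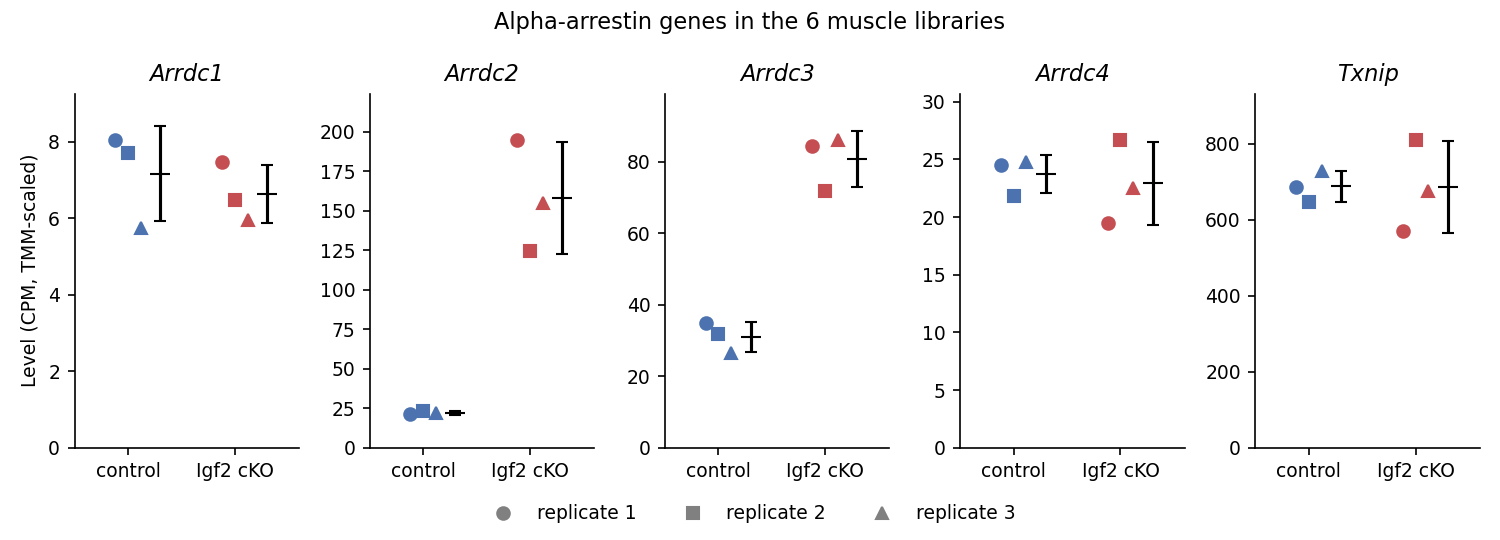
Level of each gene in TMM-scaled CPM (vertical axes, each from 0) in 3 control and 3 Igf2 cKO muscle libraries. Points are libraries, with the marker shape giving the replicate number, and bars are the group mean ± SD. Arrdc2 and Arrdc3 are higher in every Igf2 cKO library than in any control library, while the groups overlap for Arrdc1, Arrdc4 and Txnip.

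So 2 of the 5 members, Arrdc2 and Arrdc3, were called by edgeR at an adjusted p under 0.05, where 0.249% of all tested genes were called in either direction and 0.182% as higher. At an unadjusted p under 0.05 these were the 2 members as well, against 9.93% of all tested genes, and by the rule the series states, which adds an absolute log2 fold change over 1, against 1.58%. The same 2 members had groups that did not overlap, where 7.83% of all tested genes were higher without overlap and 15.5% differed without overlap in either direction. Because these 2 genes were picked on this contrast, nothing is read from these counts. In the authors' deposited table, which compares 1 Igf2 cKO library with the control library of the same number, Arrdc2 had log2 fold changes of 3.20, 2.42 and 2.82 for replicates 1, 2 and 3. Arrdc3 had 1.28, 1.18 and 1.71 in the authors' deposited table. Each of these comparisons sets 1 library against 1, so its p holds no spread between replicates, and the contrast is the one on which both genes were picked. At an adjusted p under 0.05 the authors' deposited table called Arrdc2 as higher in all 3 comparisons and Arrdc3 in the comparison of replicate 3, with 0.203%, 0.231% and 0.529% of its genes called as higher for replicates 1, 2 and 3. There Txnip had -0.27, 0.33 and -0.11 and Arrdc4 -0.33, 0.29 and -0.13, so that the sign of both genes in the authors' deposited table was positive for replicate 2 and negative for replicates 1 and 3.

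Set per gene length, the members were ordered differently in the 2 genotypes. The measure is the authors' FPKM, counts scaled by listed gene length and by library size. In controls Txnip was highest at 219 ± 13.3 FPKM (SD, n = 3), a level above that of 99.1% of tested genes. Arrdc2 followed at 6.80 ± 0.32 FPKM, Arrdc4 at 5.83 ± 0.41, Arrdc3 at 4.92 ± 0.673 and Arrdc1 at 2.84 ± 0.491 FPKM. Of these neighbours, the ranges of Arrdc4 and Arrdc3 overlapped and the other ranges did not, though the lowest Arrdc2 value (6.52 FPKM) was close to the highest Arrdc4 value (6.10 FPKM).

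In Igf2 cKO muscle Txnip stood at 219 ± 38.8 FPKM (SD, n = 3), Arrdc2 at 48.7 ± 10.8, Arrdc3 at 12.9 ± 1.26, Arrdc4 at 5.65 ± 0.899 and Arrdc1 at 2.63 ± 0.29 FPKM. No neighbours in this order overlapped. Arrdc3 had passed Arrdc4, and Arrdc2 had moved from a level above 65.6% of tested genes to a level above 94.4%. The 4 Arrdc genes together summed to 20.4 ± 0.994 FPKM in controls and 69.8 ± 11.0 FPKM in Igf2 cKO. As a share of the summed FPKM of all 5 members, Txnip took 90.9% to 92.3% in control libraries and 69.1%, 81.4% and 75.7% in Igf2 cKO replicates 1, 2 and 3. Arrdc2 took 2.68% to 3.15% in controls and 22.8%, 12.1% and 16.7% in Igf2 cKO replicates 1, 2 and 3. These shares restate the Arrdc2 difference that chose the family and are given as a description.

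**Figure D2:**
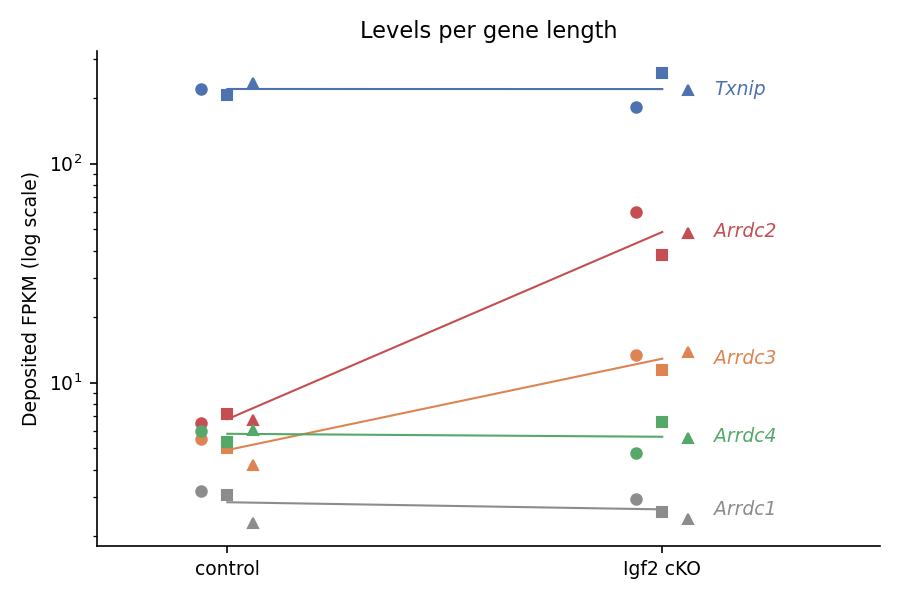
Deposited FPKM of each member (vertical log axis) in control and Igf2 cKO libraries. Points are libraries, with circles, squares and triangles for replicates 1, 2 and 3, and lines join the group means. Arrdc3 is below Arrdc4 in each control library, with overlapping ranges, and above it in each Igf2 cKO library, and Txnip is the highest gene in every library.

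Txnip and Arrdc4 kept a nearly fixed ratio. Txnip over Arrdc4, in FPKM, was 36.2, 38.4 and 38.1 in control replicates 1, 2 and 3, and 37.8, 39.3 and 38.8 in Igf2 cKO replicates 1, 2 and 3. Within the Igf2 cKO group the ratio had a coefficient of variation of 1.93%, against 17.6% for Txnip and 15.8% for Arrdc4. Within the controls the contrast was smaller, at 3.19% for the ratio, 5.98% for Txnip and 6.99% for Arrdc4. Arrdc2 over Arrdc3 was 1.18, 1.42 and 1.61 in controls and 4.48, 3.36 and 3.48 in Igf2 cKO replicates 1, 2 and 3. The shift between genotypes restates the differences on which those 2 genes were picked and is a description. Within groups their ratio had a coefficient of variation of 15.3% in controls and 16.3% in Igf2 cKO. Within the 3 Igf2 cKO libraries Arrdc2 was highest in replicate 1 and lowest in replicate 2, which is the reverse of the order of Txnip and Arrdc4.

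The likeness of profiles was measured as the root mean square difference between the log2 CPM of 2 genes over the 6 libraries, each centred on its own mean. Among 13775 tested genes with a mean of at least 1 CPM, the nearest gene to Txnip was Arrdc4, and the nearest to Arrdc4 was Txnip, at a distance of 0.037. Beside it Eya3 (0.038), Ext1 (0.039) and Prkx (0.045) lay near Txnip, and Dhx35 (0.039), Ext1 (0.041) and Nhlrc2 (0.045) near Arrdc4. Ext1 encodes a glycosyltransferase of heparan sulfate synthesis, and Eya3 a phosphatase and transcriptional coactivator. Txnip itself varied by 0.16 around its mean on this scale and Arrdc4 by 0.15, against a median of 0.18 over the genes compared, so many genes with flat profiles lie within short distances. All these genes share the same 6 libraries and their scaling factors.

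For Arrdc2 and Arrdc3 the distance is mostly set by the genotype difference on which they were chosen, since they varied by 1.42 and 0.71 around their means, so their neighbours are genes with a similar difference and their nearness to each other is no further finding. Nearest to Arrdc2 were Ppp1r3c, which targets protein phosphatase 1 to glycogen (0.16), Ddit4, an inhibitor of mTORC1 signalling (0.21), the leucine-rich repeat gene Lrrc30 (0.46) and the noncoding RNA E230001N04Rik (0.49). Ppp1r3c stood at 87.8, 69.6 and 85.3 CPM in control replicates 1, 2 and 3 and at 728, 400.3 and 587 CPM in Igf2 cKO replicates 1, 2 and 3. Like Arrdc2 it was highest in Igf2 cKO replicate 1 and lowest among the mutants in replicate 2. Ddit4 stood at 236, 237 and 220.4 CPM in the same Igf2 cKO libraries and at 27.5 to 31.9 CPM in controls, so its mutant values were closer together than those of Arrdc2.

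Nearest to Arrdc3 were Nfkbia, the inhibitor IkB-alpha of NF-kB (0.15), Gpr176, an orphan G protein-coupled receptor (0.17), the transcription factor gene Cebpb (0.18) and the growth factor receptor gene Fgfr3 (0.21). Nfkbia stood at 33.8 to 47.2 CPM in controls and at 87.7 to 97.8 CPM in Igf2 cKO. Nearest to Arrdc1 were Lrp1, an endocytic receptor of the LDL receptor family (0.042), Aatf (0.046), Pik3r2 (0.046) and Tyw1 (0.049).

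**Figure D3:**
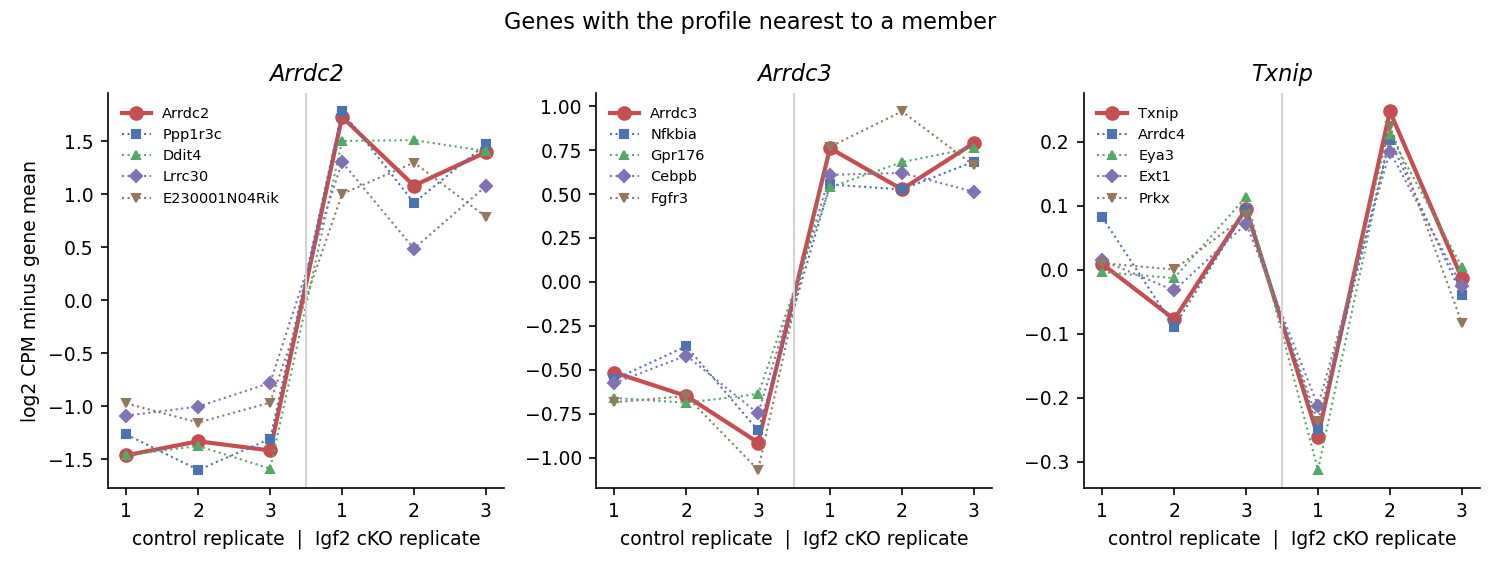
Log2 CPM minus the gene's own mean over the 6 libraries (vertical axes, different ranges) for Arrdc2, Arrdc3 and Txnip (thick lines) and the 4 genes nearest to each (dotted lines). Lines only link the values of a gene, since replicates have no order. Arrdc4 follows Txnip to within 0.1 in every library, and Ppp1r3c, unlike Ddit4, has its highest value in Igf2 cKO replicate 1 and its lowest mutant value in replicate 2, as Arrdc2 does.

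The ubiquitin ligases that alpha-arrestins recruit were expressed and did not pass the test. Of 9 NEDD4-family genes 8 were tested, 0 were called by edgeR (0 also before adjustment, that is at a raw p under 0.05, and 0 with DESeq2 or limma-voom), and the median log2 fold change was -0.08, against 0.0038 over all tested genes. Nedd4, the founding ligase of the family, had 732 ± 22.7 CPM in controls (SD, n = 3) and a log2 fold change, here and below with its SE, of -0.19 ± 0.12 (adjusted p = 0.673). Hecw2 was at 0.44 ± 0.20 (adjusted p = 0.526) and Nedd4l at -0.15 ± 0.11 (adjusted p = 0.714). The ligase adaptors Ndfip1 and Ndfip2, which also carry PPxY sequences, were at 0.0088 ± 0.089 and 0.062 ± 0.099 (adjusted p = 0.984 and 0.895).

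Other genes of the arrestin fold did not pass the test either. Of 9 listed genes 6 were tested, with a median log2 fold change of -0.05 and 0 called by edgeR (0 also before adjustment, 0 with DESeq2 or limma-voom). The retromer gene Vps26b (-0.09, adjusted p = 0.801), its relative Dscr3 of the retriever complex (-0.05, adjusted p = 0.935) and Rgp1 (-0.07, adjusted p = 0.896) had the smallest p. Arrdc5, the remaining alpha-arrestin gene of the table, was too low to pass the count filter of the main test and is named after its values were seen. It had 0, 2 and 1 counts in control replicates 1, 2 and 3 and 4, 9 and 9 in Igf2 cKO replicates 1, 2 and 3. Its groups did not overlap. The share of 7.83% that were higher without overlap is over tested genes, which leave out Arrdc5. No share was computed for genes at such low counts. The ratio of the summed counts (3 and 22) per library total was 7.55. The exact 95% interval of 2.27 to 39.4 covers counting error only. With no filter on low counts, 0 genes of the list that holds Arrdc5 were called.

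Receptors and transporters reported as cargo of the family showed no call. Of 12 listed genes 10 were tested, 0 were called by edgeR (2 before adjustment, where 9.93% of all tested genes passed, and 0 with DESeq2 or limma-voom), and the median was 0.05. The 2 were Slc2a1, the glucose transporter GLUT1, at 0.48 ± 0.16 (adjusted p = 0.376), and Adrb1, the beta-1 adrenergic receptor, at 1.21 ± 0.42 (adjusted p = 0.383) from a control mean of 0.619 CPM. The mean of Slc2a1 was 15.9 CPM in controls and 22.1 CPM in the mutants. Slc2a4, the insulin-regulated transporter GLUT4, was abundant at 654 CPM in controls and at 0.02 ± 0.14 (adjusted p = 0.976). It is named for its link to Txnip, after its values were seen.

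The redox partners and the glucose-sensing regulators of Txnip gave 0 calls by edgeR as well. In the thioredoxin system 0 of 13 tested genes were called (2 before adjustment, beside 9.93% of all tested genes, and 0 with DESeq2 or limma-voom), with a median of 0.05. Thioredoxin itself, Txn1, was at 0.26 ± 0.093 (adjusted p = 0.39), Srxn1, which repairs oxidised peroxiredoxins, at 0.37 ± 0.15 (adjusted p = 0.471) and Txnrd2, the mitochondrial thioredoxin reductase, at 0.18 ± 0.12 (adjusted p = 0.673). Mlxip was at -0.16 ± 0.13 (adjusted p = 0.763), Mlxipl at 0.02 ± 0.16 (adjusted p = 0.979) and Mlx at -0.02 ± 0.13 (adjusted p = 0.975), with 0 of the 3 passing before adjustment and 0 with DESeq2 or limma-voom.

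Of 12 listed targets of the carbohydrate-response factors beyond Txnip and Arrdc4, 10 were tested and 0 were called by edgeR (2 before adjustment, beside 9.93% of all tested genes, 1 with DESeq2, 0 by limma-voom). Their median was 0.40, beside -0.0045 for Txnip and -0.05 for Arrdc4. Thrsp, a regulator of lipid synthesis, was at 0.96 ± 0.22 (adjusted p = 0.19), fatty acid synthase (Fasn) at 1.48 ± 0.65 (adjusted p = 0.506) and the transcription factor gene Klf10 at -0.50 ± 0.15 (adjusted p = 0.311). The summed markers of adipocytes, which express Fasn and Thrsp, stood at 492 to 862 CPM in controls and at 656, 622 and 1523 CPM in Igf2 cKO replicates 1, 2 and 3, with all 7 tested markers above 0 on the log2 scale, 0 of them called (0 also before adjustment) and Ucp1 at 0 in every library. Their part in these values was not tested. The ESCRT genes used in vesicle budding with Arrdc1 had a median of 0.09, with 0 of 10 tested genes called by edgeR (0 also before adjustment, 0 with DESeq2 or limma-voom) and Chmp4b at 0.16, Stam2 at 0.17 and Pdcd6ip (ALIX) at 0.12 (adjusted p between 0.639 and 0.76).

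Beside these lists stand 2 others with called genes. They were chosen with earlier results of these data known, so their counts are a description and nothing is read from them. Of 16 tested glucocorticoid targets 15 were above 0 on the log2 scale and 1 below, with a list median of 0.84. Before adjustment 10 passed, beside 9.93% of all tested genes. By edgeR 5 were called as higher, where 0.182% of all tested genes were. They were Ddit4 (2.95 ± 0.11), Tsc22d3, the leucine zipper protein GILZ (197 CPM in controls and 558 CPM in mutants), the cell cycle inhibitor gene Cdkn1a (1.23 ± 0.14), the kinase gene Sgk1 (0.97 ± 0.12) and the glutamine synthetase gene Glul (0.88 ± 0.12), with adjusted p between 1.62e-05 and 0.0318 by edgeR. The count of 5 became 1 when any 1 control was left out, 2 when Igf2 cKO replicate 3 was left out, 3 with the replicate number as a block, 8 with DESeq2 and 9 when all genes with counts were tested. Of 10 genes known to be induced by cyclic AMP 7 were above 0 and 3 below, with a median of 0.37. Before adjustment 4 passed, beside 9.93% of all tested genes. Among the 4 was Pde4b, named after its values were seen, which was lower in every mutant library (-0.64, adjusted p = 0.215 by edgeR). By edgeR 1 gene was called, the nuclear receptor gene Nr4a3 (1.61 ± 0.19, adjusted p = 0.0179), as higher. Sik1 was at 1.21 (adjusted p = 0.0584) and Nr4a1 at 1.03 (adjusted p = 0.162). This count became 0 when any 1 control or Igf2 cKO replicate 3 was left out or limma was run on log2 FPKM, 2 when another mutant library was left out, and 4 with DESeq2 or when all genes with counts were tested.

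**Figure D4:**
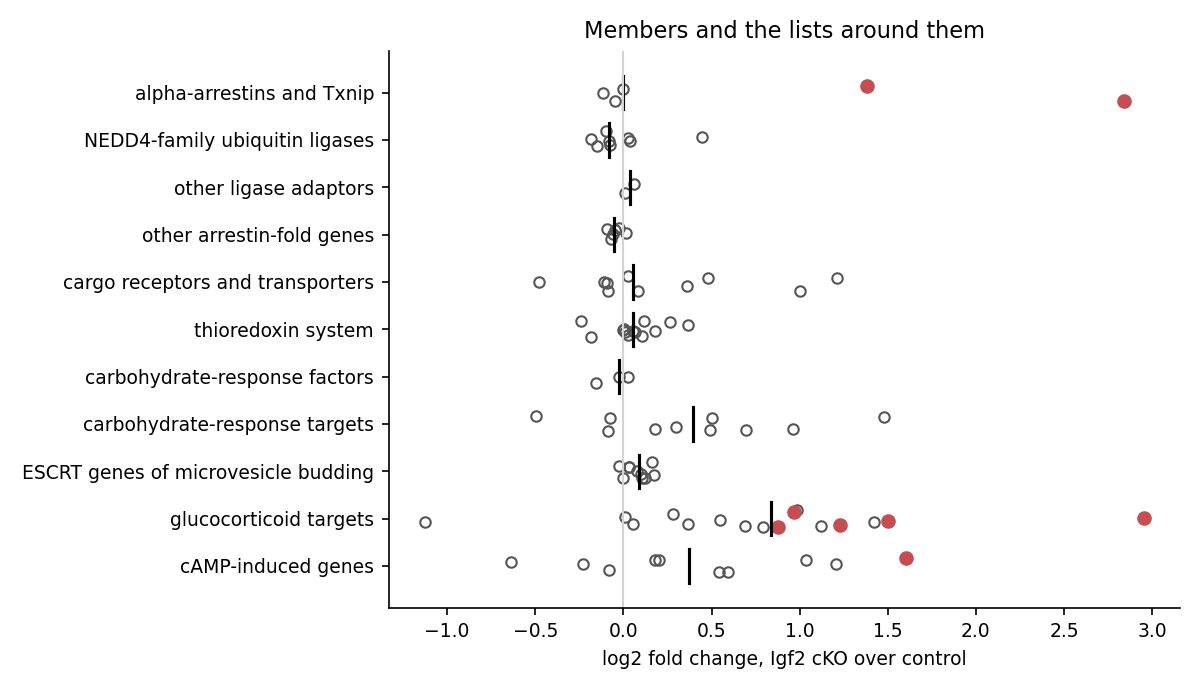
Log2 fold change of Igf2 cKO over control (horizontal axis) for the 5 members and for every tested gene of the 10 lists around them. Filled points are genes called by edgeR at an adjusted p under 0.05, open points were not called, and vertical bars are list medians. Arrdc2 and Arrdc3 stand at 2.84 and 1.38, and no gene of the ligase, adaptor, arrestin-fold, cargo, thioredoxin, carbohydrate-response or ESCRT lists is called.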

How the data were processed

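Total RNA of 6 mouse muscle samples, 3 control and 3 Igf2 cKO, was sequenced by an outside provider on a NovaSeq, per the labels. Sample titles gave the group and the number of each library. No source used here names the aligner, the counting tool, its strand setting or the genome build. The deposited table, per the file headers, gives raw counts and FPKM by gene and sample, with the authors' log2 fold change, p-value and adjusted p-value for 3 comparisons of single libraries. Deposited FPKM equal the count over the listed gene length, which for the 5 members equals the summed exon length in GENCODE M21, and over 0.942 to 1.04 times the library total. Of 54495 gene identifiers found in that annotation, 98.3% have the same start and end, so coordinates match GRCm38. Another 6 columns of per-sample values with names that do not match the titles were not used.

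The main test was edgeR's quasi-likelihood F test (version 4.0.16, R 4.3.3) on the counts, with genotype as the term, TMM factors, filterByExpr and Benjamini-Hochberg adjustment over 14867 genes, called at an adjusted p under 0.05. Intervals are 95%. DESeq2 1.42.0 (default settings, with its own filter on all genes with counts) and limma 3.58.1 served as alternatives, and FPKM took a pseudocount of 0.1 on the log2 scale. Profiles were compared on log2 CPM with a prior count of 2. The labels do not say that libraries come from separate animals, so p-values measure the spread between these libraries.

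The members and gene lists were chosen with earlier results of these data known. Genes named were the members, the called genes of a list up to 6 or, where fewer than 2 were called, the 3 with the smallest p, the 4 nearest in profile to each member, and up to 2 markers of a cell type. Further list genes and markers were named after their values were seen. Igf2 was named as the targeted gene. A gene of the cargo list that this rule names is not reported here. RefSeq promoter windows matched all 5 members by symbol.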

Additional observations from a re-analysis of the deposited data

How the results depend on the processing

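The log2 fold changes of Arrdc2 and Arrdc3 kept their direction under all 16 alternatives, between 2.66 and 2.98 for Arrdc2 and between 1.28 and 1.47 for Arrdc3 with any 1 library left out. Both genes were picked on this contrast in these same libraries, so the kept direction is a description and no support. Arrdc1, Arrdc4 and Txnip missed the threshold under all 16 (adjusted p between 0.677 and 1.00). With 1 library left out Arrdc1 lay between -0.25 and -0.02, Arrdc4 between -0.17 and 0.06 and Txnip between -0.14 and 0.11, with Arrdc4 at 0.056 without Igf2 cKO replicate 1, so the sign of the last 2 is not settled. The cause of these shifts was not tested.

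Over all genes 37 calls became 282 with no filter on low counts, 203 with DESeq2 on all genes with counts, 214 with DESeq2 on the 14867 genes of the main test, 235 by the series' own rule, and 8 to 68 with 1 library left out. The glucocorticoid list (5 calls) gave 9 with no filter and 8 with DESeq2 on either set of genes, and 1 to 7 with 1 library left out. The cyclic AMP list (1 call) gave 4 with no filter and 4 with DESeq2 on either set, 3 by the series rule, 0 by limma on log2 FPKM, and 0 to 2 with 1 library left out. The carbohydrate-response targets gave 2 calls with no filter and 1 with DESeq2 on either set, and the cargo list 1 by the series rule. With the replicate number as a block, 35 genes were called, 27 of them among the 37, and 3 in the glucocorticoid list. The main test did not pair the libraries, since the labels do not say that the numbers pair them. Deviations from group means correlated at 0.18, 0.077 and -0.038 for numbers 1, 2 and 3. Control replicates 1 and 2 correlated best with the mutant library of the same number, and control replicate 3 with Igf2 cKO replicate 2 (0.13). Correlations this weak, from groups of 3, cannot decide whether the libraries are paired. With a pseudocount of 1, the log2 level of Txnip over Arrdc2 in controls was 4.82 in place of 4.99, and that of Arrdc3 over Arrdc1 0.63 in place of 0.78. Of the 20 nearest genes, 20 were shared under RLE factors and 18 at a mean of at least 5 CPM. DESeq2 on the genes of the main test was chosen after seeing the data. Arrdc5, at 9 counts or fewer a library, fell below the count filter of the main test. It entered the test with no filter on low counts, where 0 genes of its list were called.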
